A study of Mus musculus with 19 samples.

Results

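Primary cilium genes were followed in RNA from mouse hepatocytes. The set was a list of 41 symbols covering ciliary transport, the BBSome, the transition zone and the polycystins, listed by name. Of these, 40 were found among the 35274 genes of the count tables and all 40 passed the filter on low counts. Tctn2 is not analysed here. The set comprised 11 genes of intraflagellar transport complex B, 3 of complex A, 6 motors, 10 BBSome genes and partners, the ciliary GTPase gene Arl13b, 6 transition zone genes, and Pkhd1, Pkd1 and Pkd2.

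All animals carried OPN-CreERT2, a tamoxifen-inducible Cre recombinase under the osteopontin promoter, and the Rosa26R-mT/mG reporter, which turns from membrane tomato to membrane GFP after Cre activity. The CTL group held native hepatocytes from healthy liver. Both other groups came from livers with chronic injury: RED held native tdTomato hepatocytes, and GREEN held DR-derived hepatocytes, where the labels do not spell out DR. By their titles, each group had 5 samples. Libraries came from 2 experiments with different kits: experiment 1 selected poly(A) RNA (CTL 3 and 4, RED 1 and 5, GREEN 4 and 5 in the tests) and experiment 2 removed ribosomal RNA (CTL 1, 2 and 5, RED 2, 3 and 4, GREEN 1, 2 and 3). The sources used here do not state the age or sex of the animals, the injuring agent or which samples shared an animal. GREEN 3 and GREEN 4 have different titles but the same library code up to the closing S number. The 2 libraries of each sample that had 2 share codes in this way. Whether GREEN 3 and GREEN 4 are 1 sample is not stated. Their log2 CPM values correlated at 0.938 across genes, against 0.944 for GREEN 3 and GREEN 5, whose codes differ. GREEN 4 correlated with GREEN 1 and GREEN 2 at 0.834 and 0.878, and GREEN 5 with them at 0.889 and 0.92. For 2 libraries of the same sample the values were 0.949 to 0.963. The p-values measure the spread between these samples. The osteopontin promoter is also active in bile duct cells, so the reporter alone does not tell a hepatocyte from a duct cell.

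A primary cilium is a microtubule-based antenna that grows from a basal body at the surface of a resting cell. Intraflagellar transport complex B travels to the tip with kinesin motors and complex A returns with a cytoplasmic dynein, while the BBSome carries membrane proteins and the transition zone gates the base. In the liver, cholangiocytes, the cells lining the bile ducts, bear a primary cilium on which fibrocystin and the polycystins sense bile flow, and hepatocytes bear none. Loss of these proteins is known for cysts of the kidney and bile ducts.

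Promoter sequences of 4 members are shown because they hold the motifs by which ciliary genes are commonly recognised. RefSeq promoter windows (GRCm38.p6, from 250 bases before the start to 50 after it) were found for 35 of the 40 genes. The X-box, bound by RFX transcription factors, was searched on both strands as GTTNCC and GGNAAC parted by 2 bases of any kind. It was present in 3 of the 35 (8.57%; Bbs7, Mks1 and Tctn1), against 0.529% of 27025 genes. Its half-site GTTGCC, which a full X-box can contain, was present in 15 of 35 (42.9%), against 14.1% of all genes. These matches are letters in a window and no measurement of binding, and the genes compared were not matched for base composition. Capitals mark the matched letters in the sequences, which run 5′ to 3′ on the gene's own strand.
Ift57 (chr16:49699177-49699249, plus strand): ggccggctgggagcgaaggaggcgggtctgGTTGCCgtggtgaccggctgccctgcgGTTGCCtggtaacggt
Kif3a (chr11:53567241-53567306, plus strand): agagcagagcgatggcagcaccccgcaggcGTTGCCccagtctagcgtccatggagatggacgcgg
Bbs7 (chr3:36613467-36613540, minus strand): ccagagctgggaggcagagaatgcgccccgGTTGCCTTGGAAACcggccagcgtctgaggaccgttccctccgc
Mks1 (chr11:87853161-87853214, plus strand): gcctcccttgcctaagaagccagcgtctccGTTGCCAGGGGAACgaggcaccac

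The half-site was found among genes that rose and among those that did not. Of the 19 genes with a window that rose in GREEN versus RED, 7 held the half-site, and of the 16 that did not pass the test, 8 held it. Of the 3 genes with a full X-box, Bbs7 and Mks1, where it lies before the start, did not pass. Tctn1, where it lies after the start, rose by a log2 fold change of 1.42. In Ift57, which also rose, the second half-site is followed by tggtaac, a closer spacing than the one searched. The Pkhd1 window differed in base composition from the other members, with 43.3% GC and 4 CpG dinucleotides against member medians of 59.9% and 20. The medians of all promoters were 52.7% and 7, so the member windows were richer in both than promoters at large.

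The 2 populations of injured liver differed in cilium genes of nearly every role. In GREEN versus RED, 22 of the 40 genes rose and 0 fell by edgeR's quasi-likelihood test at an adjusted p below 0.05, with 28 at an unadjusted p below 0.05. Over all 16387 genes tested 9.68% rose and 3.22% fell. The median log2 fold change was 0.95 for the cilium genes and -0.02 for all genes. Every role had rising genes except the single GTPase gene. Fitted differences were positive for 35 of 40, and for 12 of 40 all 5 GREEN samples lay above all 5 RED samples, which was so for 6.66% of all genes. With libraries scaled by their totals instead, 32 of 40 rose (26.2% of all genes). The counts varied with the samples used, and so did those of all genes: 12 rose without RED 1 (5.02% of all genes), 13 without GREEN 4 (5.08%), 14 without GREEN 3 (4.69%), and 2, Pkhd1 and Dync2li1, without both GREEN 4 and GREEN 5 (1.59%).

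**Figure D1:**
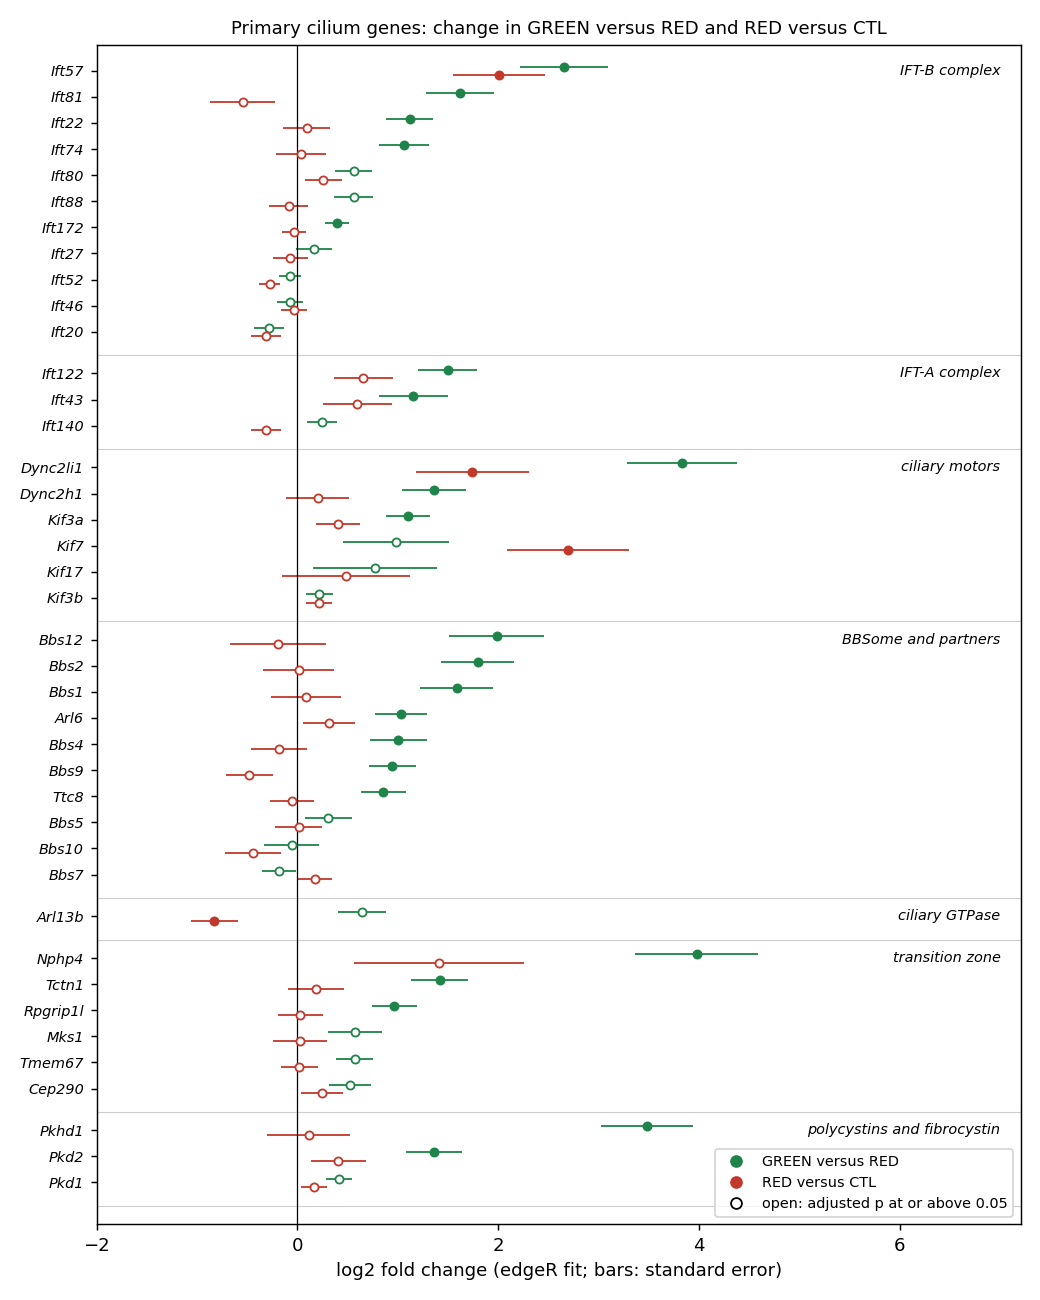
Fitted log2 fold change of each of the 40 genes (x axis, bars are standard errors) in GREEN versus RED (green) and RED versus CTL (red), grouped by role; filled points have an adjusted p under 0.05. The green points are filled for 22 genes, all to the right of 0, and the red points for 4.

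In bulk RNA, fewer cells of a type and less RNA per cell cannot be told apart, and this holds for every difference below. Markers of the biliary lineage moved with the cilium genes. Of 22 biliary markers tested, 17 rose and 0 fell in GREEN versus RED, with a median log2 fold change of 5.62. The summed level of the 23 matched markers was 177 to 488 CPM (read counts set to a common library size with TMM factors) in CTL, 325 to 1468 in RED and 782 to 9842 in GREEN. Over the GREEN samples together, most of that sum was Spp1, the osteopontin gene, whose promoter drives the Cre recombinase. Krt19 averaged 0.0114, 0.488 and 54.9 CPM in CTL, RED and GREEN, and Cftr, Sctr and Pdx1 were among the markers with 0 counts in all CTL samples. The summed level of 28 mature hepatocyte markers was 157092 to 220143 CPM in RED and 55255 to 131569 in GREEN. Albumin averaged 34272 CPM in GREEN, so hepatocyte RNA was abundant there. Of 18 stellate cell and fibroblast markers 6 rose and 0 fell, and of 6 mesothelial markers 4 rose and 0 fell. The part of these cell types in the change of the cilium genes was not tested.

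Pkhd1 (ENSMUSG00000043760.16, chromosome 1, 20057779 to 20618064, GRCm38) encodes fibrocystin, the receptor-like ciliary membrane protein lost in autosomal recessive polycystic kidney disease with congenital hepatic fibrosis. Its level was 20.6, 27.9, 17.8, 13.1 and 14.9 CPM in CTL 1 to 5. It was 18.3, 39.9, 22.5, 12.6 and 9.22 CPM in RED 1 to 5. In GREEN 1 to 5 it was 99.0, 110.2, 328, 281 and 292 CPM. All GREEN samples lay above all others, and GREEN 1 and GREEN 2 formed the lower pair. The mean ratio of GREEN to RED was 10.8 (log2 fold change 3.48, standard error 0.46, adjusted p 0.000462), and the RED to CTL difference was 0.11 on the log2 scale (standard error 0.42, adjusted p 0.908).

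Pkd2 (ENSMUSG00000034462.9, chromosome 5, 104459450 to 104505819) encodes polycystin-2, a cation channel. It stood at 25.8, 43.6, 33.6, 23.1 and 33.4 CPM in CTL 1 to 5 and at 38.0, 41.8, 41.4, 46.1 and 45.7 CPM in RED 1 to 5. In GREEN 1 to 5 it reached 56.8, 63.0, 109, 165 and 176 CPM, again with no overlap with RED. Pkd2 rose in GREEN versus RED by a log2 fold change of 1.36 (standard error 0.28, adjusted p 0.00737).

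Pkd1 (ENSMUSG00000032855.6, chromosome 17, 24549834 to 24596508) encodes polycystin-1, the large membrane partner of polycystin-2. It stood at 35.9, 47.4, 56.7, 53.6 and 45.3 CPM in RED 1 to 5 and at 63.2, 59.5, 73.0, 49.9 and 69.4 CPM in GREEN 1 to 5. GREEN 4 lay within the RED range, and the difference of 0.41 on the log2 scale (standard error 0.13) did not pass the test (adjusted p 0.0514). Against CTL, at 42.7 ± 8.37 CPM (SD, n = 5), Pkd1 rose by 0.58 (adjusted p 0.00268). Exons of Pkd1 overlap Tsc2 on the opposite strand. The difference in change between Pkhd1 and Pkd1 was not tested.

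**Figure D2:**
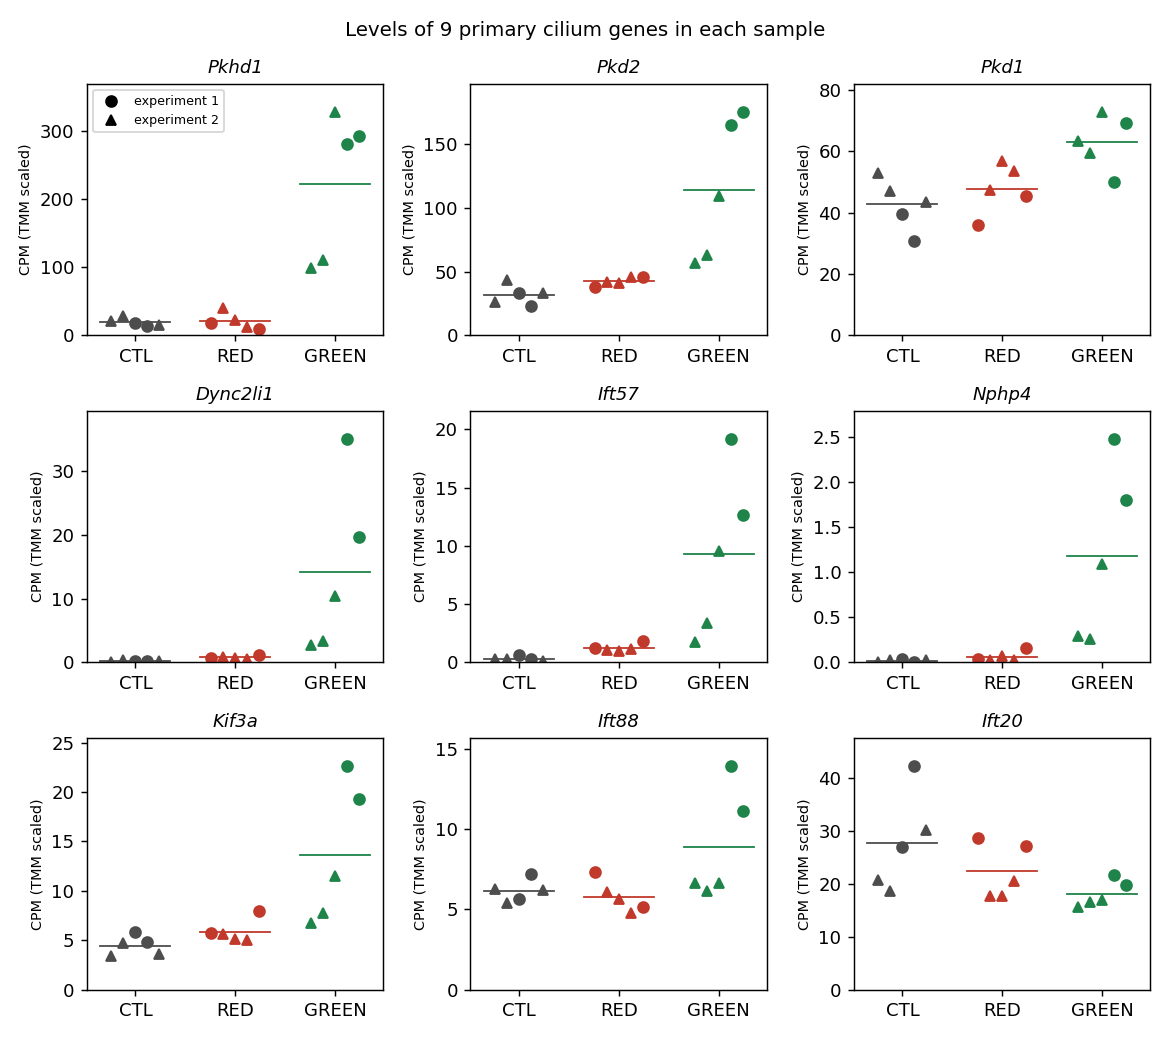
Level of 9 genes (y axis, TMM-scaled CPM from 0, a separate scale per gene) in each CTL, RED and GREEN sample; circles are experiment 1, triangles experiment 2 and lines group means. For Pkhd1, Pkd2, Dync2li1 and Nphp4 all 5 GREEN samples lie above all RED samples, whereas Ift88 and Ift20 overlap.

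Among the motors, Dync2li1 (ENSMUSG00000024253.8, chromosome 17, 84626496 to 84655588), the light intermediate chain of the dynein that drives return transport, had the largest change. Its level was 0.130, 0.366, 0.157, 0.285 and 0.177 CPM in CTL 1 to 5 and 0.721, 0.909, 0.647, 0.478 and 1.21 CPM in RED 1 to 5. In GREEN 1 to 5 it was 2.75, 3.37, 10.4, 35.1 and 19.7 CPM. The 3 groups did not overlap, and the spread within GREEN exceeded the gap between RED and GREEN 1. The log2 fold change of GREEN versus RED was 3.83 (standard error 0.54, adjusted p 0.000709). Dync2h1, the heavy chain of the same motor, rose from 7.93 ± 3.74 CPM in RED to 18.9 ± 5.55 CPM in GREEN (SD, n = 5, log2 fold change 1.36, adjusted p 0.015).

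Kif3a (ENSMUSG00000018395.19, chromosome 11, 53567379 to 53601967) encodes a kinesin of outbound transport. Its level in CTL 1 to 5 was 3.40, 4.73, 5.79, 4.79 and 3.60 CPM. In RED 1 to 5 it was 5.73, 5.63, 5.10, 4.99 and 7.94 CPM, and in GREEN 1 to 5 it was 6.72, 7.74, 11.5, 22.6 and 19.3 CPM. RED 5 lay above GREEN 1 and GREEN 2, and the rise passed the test (log2 fold change 1.10, standard error 0.22, adjusted p 0.00581). Its partner Kif3b did not pass (0.22, standard error 0.13, adjusted p 0.273), with 20.5 ± 3.90 CPM in RED and 24.5 ± 8.56 in GREEN (SD, n = 5). Kif17, another transport kinesin, stayed below 1 CPM in all samples, and its exons overlap Sh2d5 on the same strand. Kif7, a kinesin of Hedgehog signalling at the ciliary tip, differed by 0.98 (standard error 0.53, adjusted p 0.221).

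In intraflagellar transport complex B, 5 of 11 genes rose. Ift57 (ENSMUSG00000032965.10, chromosome 16, 49699233 to 49765126), a peripheral subunit, stood at 0.260, 0.314, 0.630, 0.342 and 0.118 CPM in CTL 1 to 5. It stood at 1.27, 1.04, 1.01, 1.19 and 1.83 CPM in RED 1 to 5 and at 1.72, 3.41, 9.58, 19.2 and 12.7 CPM in GREEN 1 to 5. RED lay wholly above CTL, and GREEN 1 was the one GREEN sample within the RED range. The GREEN versus RED change was 2.65 (standard error 0.44, adjusted p 0.00176).

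Ift81 (ENSMUSG00000029469.14, chromosome 5, 122550204 to 122614518), which binds tubulin cargo together with Ift74, was at 2.55, 4.18, 5.51, 3.14 and 4.99 CPM in CTL 1 to 5. It was at 2.29, 2.80, 2.59, 2.34 and 4.08 CPM in RED 1 to 5 and at 4.24, 4.41, 7.85, 18.3 and 13.0 CPM in GREEN 1 to 5. GREEN did not overlap RED but overlapped CTL (GREEN versus RED 1.62, standard error 0.33, adjusted p 0.00721). Ift22 (1.12, adjusted p 0.00807), Ift74 (1.06, adjusted p 0.0151) and Ift172 (0.39, adjusted p 0.0456) also rose.

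The other 6 genes of complex B did not pass. Ift88, a core subunit often used to mark cilia, was at 6.26, 5.41, 5.67, 7.18 and 6.20 CPM in CTL 1 to 5, at 7.30, 6.10, 5.68, 4.75 and 5.17 CPM in RED 1 to 5, and at 6.62, 6.12, 6.66, 13.9 and 11.1 CPM in GREEN 1 to 5. GREEN 4 and GREEN 5 alone exceeded every RED sample (log2 0.56, standard error 0.19, adjusted p 0.0681). Ift80 had the same fitted value (0.56, adjusted p 0.0593). Ift20, Ift46 and Ift52 had fitted values of -0.28, -0.07 and -0.07 and Ift27 of 0.16. When libraries were scaled by their totals, which moved the median of all genes to 0.42, Ift20, Ift46 and Ift52 had positive values of 0.16, 0.38 and 0.37, all below that median.

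Of complex A, Ift122 (ENSMUSG00000030323.13, chromosome 6, 115853470 to 115926699) was at 2.34, 3.27, 4.41, 3.48 and 4.69 CPM in CTL 1 to 5. It was at 5.47, 5.84, 5.13, 5.16 and 7.16 CPM in RED 1 to 5 and at 8.40, 8.16, 14.7, 34.1 and 24.1 CPM in GREEN 1 to 5. The 3 groups were stepped without overlap. Its GREEN versus RED change was 1.49 (standard error 0.30, adjusted p 0.00548), while its RED versus CTL difference of 0.66 did not pass (adjusted p 0.163). Ift43 rose by 1.15 (adjusted p 0.0429), and Ift140 did not pass (0.25, adjusted p 0.281).

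Of the BBSome genes and partners, 7 of 10 rose. Bbs2 (ENSMUSG00000031755.6, chromosome 8, 94067954 to 94098928), a structural subunit, was at 1.82, 2.46, 2.32, 2.85 and 1.27 CPM in CTL 1 to 5. It was at 2.33, 1.87, 2.28, 1.89 and 2.10 CPM in RED 1 to 5 and at 2.42, 3.57, 7.13, 15.2 and 14.1 CPM in GREEN 1 to 5. All GREEN samples exceeded all RED samples, GREEN 1 by less than 0.1 CPM (log2 fold change 1.80, standard error 0.36, adjusted p 0.00627). Bbs1, the subunit that binds the GTPase Arl6, rose by 1.59, and Arl6 itself by 1.03. Bbs9, Bbs4 and Ttc8, further subunits, rose by 0.94, 1.01 and 0.86, and exons of Bbs4 overlap Adpgk on the opposite strand. Bbs12, a chaperonin-like gene of BBSome assembly, rose from 0.371 ± 0.112 to 1.51 ± 0.855 CPM (SD, n = 5, log2 fold change 1.98, adjusted p 0.0164), and its exons overlap Cetn4 on the opposite strand. Bbs5, Bbs7 and Bbs10 did not pass, with values of 0.31, -0.19 and -0.06. Bbs7 and Bbs10 also had values below the all-gene median of 0.42 when libraries were scaled by their totals (0.25 and 0.35).

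Arl13b (ENSMUSG00000022911.10, chromosome 16, 62793685 to 62847040), a GTPase of the ciliary membrane, had its lowest group mean in RED. It was at 9.09, 14.5, 10.7, 20.5 and 13.2 CPM in CTL 1 to 5. It was at 7.89, 10.2, 6.78, 5.37 and 7.51 CPM in RED 1 to 5, and at 9.47, 7.76, 10.2, 18.3 and 15.8 CPM in GREEN 1 to 5. The RED and CTL ranges overlapped, with RED 2 above CTL 1. Its GREEN versus RED difference of 0.64 (standard error 0.24) did not pass (adjusted p 0.0842).

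Of 6 transition zone genes, 3 rose. Nphp4 (ENSMUSG00000039577.17, chromosome 4, 152476706 to 152563183), a gene of nephronophthisis, rested on few reads: 3 counts over all CTL samples, 10 over all RED samples and 290 over all GREEN samples. Its level was 0, 0.0261, 0.0394, 0 and 0.0295 CPM in CTL 1 to 5. It was 0.0424, 0.0260, 0.0718, 0.0239 and 0.156 CPM in RED 1 to 5 and 0.289, 0.265, 1.09, 2.48 and 1.80 CPM in GREEN 1 to 5. GREEN did not overlap RED (3.97, standard error 0.61, adjusted p 0.00113).

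Tctn1 (ENSMUSG00000038593.18, chromosome 5, 122237848 to 122264460), a tectonic of the ciliary gate, was at 4.65, 4.36, 3.86, 2.34 and 3.45 CPM in CTL 1 to 5. It was at 3.56, 5.43, 4.14, 3.56 and 4.75 CPM in RED 1 to 5 and at 7.73, 6.94, 10.0, 16.1 and 18.3 CPM in GREEN 1 to 5. GREEN exceeded both other groups without overlap (GREEN versus RED 1.42, standard error 0.28, adjusted p 0.00587). Exons of Tctn1 overlap Hvcn1 and Gm15481 on the opposite strand. Rpgrip1l, a scaffold of the ciliary gate, rose by 0.96 (adjusted p 0.0143). Tmem67 (0.57, adjusted p 0.0533), Cep290 (0.53, adjusted p 0.105) and Mks1 (0.57, adjusted p 0.165) did not pass.

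The rise was uneven among GREEN samples. GREEN 4 and GREEN 5, both of experiment 1, exceeded all RED samples at 33 and 31 of the 40 genes, GREEN 3 at 26, GREEN 1 at 19 and GREEN 2 at 15. GREEN 1, GREEN 2 and GREEN 3 lay below all RED samples at 3, 2 and 4 genes, and GREEN 4 and GREEN 5 at 0. These counts were not made over all genes. The median ratio to the RED median was 2.77 in GREEN 4, 2.49 in GREEN 5, 1.86 in GREEN 3, 1.31 in GREEN 1 and 1.23 in GREEN 2. Neither these ratios nor the counts above were adjusted for experiment, and the RED samples came from both kits. With the experiment effect taken out, the mean log2 CPM of the 40 genes was 3.65, 3.37 and 3.25 in GREEN 4, 5 and 3. It was 2.73 and 2.75 in GREEN 1 and 2, and 1.99 to 2.39 in RED. In a model with separate changes per experiment, 28 genes rose in GREEN versus RED among experiment 1 samples (median log2 1.47), against 12% of all genes. Among experiment 2 samples 3 rose, Pkhd1, Dync2li1 and Nphp4, against 1.95% of all genes (median 0.44, with 17 at an unadjusted p below 0.05). Fitted values were positive in both experiments for 35 genes and negative in both for 3. They were larger in experiment 1 for 36 of the 40, against 53.5% of all genes.

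The difference between experiments was tested as an interaction with edgeR. It passed for 0 of the 40 genes (0% of all genes), with 15 of 40 and 1420 of all 16387 genes at an unadjusted p below 0.05 and a lowest adjusted p of 0.564 among the cilium genes. When experiment 2 libraries were fitted alone, 0 of 40 passed in GREEN versus RED, with 16 at an unadjusted p below 0.05, against 0.452% of all genes higher. Alone, experiment 1 gave 31 higher, against 19.4% of all genes. Kit, GREEN samples and the level of biliary markers differ together between the experiments and cannot be told apart. By title no GREEN sample was prepared with both kits, but GREEN 3 and GREEN 4 share a library code, and whether they are 1 sample is not stated. By title, 4 other samples were prepared with both kits (CTL 5 and RED 2, 3 and 4). In these, 38 of the cilium genes could be compared in all 4 pairs, and 13 were lower and 12 higher in all 4 experiment 2 libraries. These ratios compare levels between kits and say nothing of a change between groups within 1 kit. The GREEN versus RED change of Pkhd1 was 4.38 in experiment 1 and 2.84 in experiment 2.

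**Figure D3:**
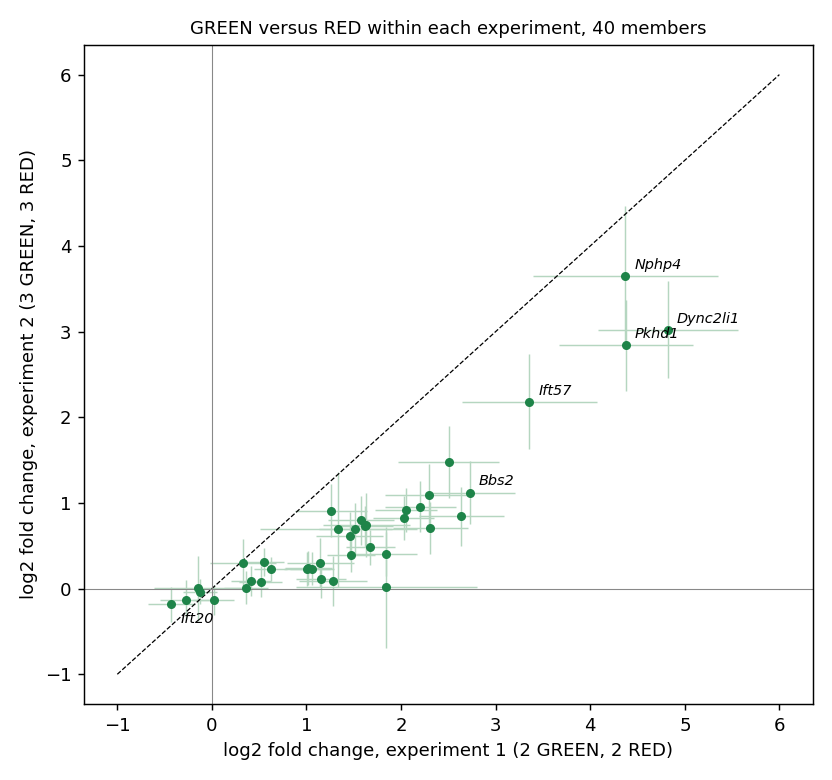
Fitted log2 fold change in GREEN versus RED among experiment 1 samples (x axis, 2 per group) and experiment 2 samples (y axis, 3 per group) for 40 genes, bars are standard errors and the dashed line marks equal change. Most points lie below the line, 36 genes being larger in experiment 1 (53.5% of all genes). Nphp4, Dync2li1, Pkhd1 and Ift57 lie farthest out on both axes.

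Among the 5 GREEN samples, the summed level of the 40 genes ran in the same order as that of the biliary markers. Over the samples of all groups it did so only in part. It was 314 to 347 CPM in CTL and 316 to 367 CPM in RED. GREEN 1 and GREEN 2 held 476 and 485 CPM, GREEN 3 held 840 CPM, GREEN 5 held 1001 CPM and GREEN 4 held 1063 CPM. The biliary marker sums of GREEN 1, 2, 3, 5 and 4 were 782, 1151, 3906, 5136 and 9842 CPM. Pkhd1 alone made 20.8% to 39.1% of the cilium gene sum in GREEN and 2.70% to 10.9% in the other samples. Without Pkhd1 the GREEN sums were 375 to 782 CPM against 303 to 333 CPM in RED. The order then no longer matched fully, with GREEN 1 at 377.5 CPM and GREEN 2 at 374.9 CPM. RED 5, with a biliary marker sum of 1468 CPM that exceeded those of GREEN 1 and GREEN 2, had a cilium gene sum of 342 CPM. In RED 5 that marker sum was mainly Aqp1, at 957 CPM, which endothelial cells also express, and Spp1, at 380 CPM, whereas Krt19 was at 0.906 CPM and Epcam at 0.711 CPM. The GREEN marker sums were mostly Spp1, with 707016 counts over the 5 GREEN samples, against 38207 for Aqp1, 19400 for Epcam and 13556 for Krt19. Their order is therefore largely that of osteopontin RNA.

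**Figure D4:**
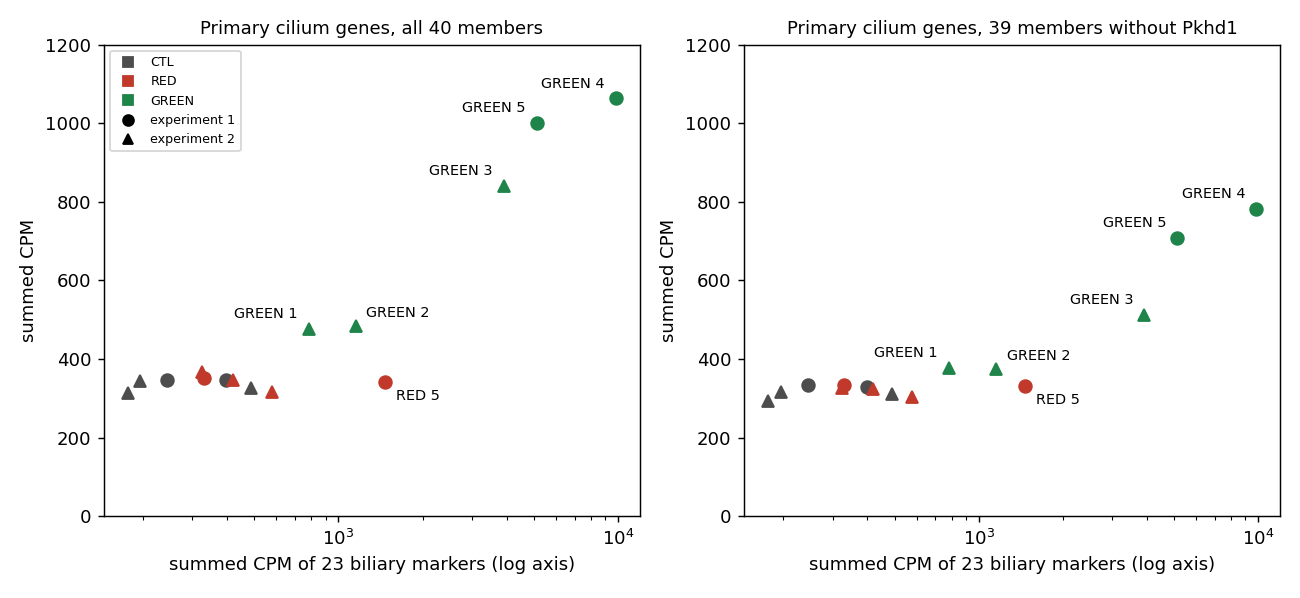
Summed CPM of the cilium genes (y axis from 0; left all 40, right 39 without Pkhd1) against summed CPM of 23 biliary markers (x axis, log scale) in each sample; colours are groups, circles experiment 1 and triangles experiment 2. The 5 GREEN samples are highest on the left panel, from 476 to 1063 CPM, and RED 5 lies with the other RED samples at 342 CPM.

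RED versus CTL compares native hepatocytes between injured and healthy liver. Here 3 of 40 cilium genes rose and 1 fell, against 14.2% of all genes higher and 1.99% lower, and the median was 0.06 (0.05 for all genes). Ift57 rose by 2.01 (standard error 0.46, adjusted p 0.00724) and Dync2li1 by 1.74 (standard error 0.56, adjusted p 0.0498), at the values given above. Kif7 (ENSMUSG00000050382.14, chromosome 7, 79698098 to 79715720) was at 0.0260, 0.340, 0.118, 0.0570 and 0.148 CPM in CTL 1 to 5. It was at 0.552, 0.389, 1.08, 1.22 and 1.63 CPM in RED 1 to 5 and at 0.951, 1.16, 2.23, 2.92 and 2.63 CPM in GREEN 1 to 5. All RED samples exceeded all CTL samples (2.69, standard error 0.61, adjusted p 0.00617), as they did for Ift57, Dync2li1 and Ift122, 4 of 40 against 10.6% of all genes. The Ift57 call held with any 1 sample left out, but not in experiment 1 alone (adjusted p 0.0516) or experiment 2 alone (0.0872). Nor did it hold with limma-voom (0.103) or with the experiment 1 libraries of the 4 samples prepared with both kits (0.141). A replicate block by library code, which compares CTL with other groups only within experiment 1, gave an adjusted p of 0.0549. Kif7 did not pass in experiment 2 alone (adjusted p 0.116) or with those experiment 1 libraries (0.0538). The Dync2li1 call depended on single samples, with adjusted p from 0.0196 (without CTL 2) to 0.124 (without CTL 3), and over all settings from 0.0096 (experiment 1 alone) to 0.238 (limma-voom). The fitted values of these 3 genes were positive in every setting.

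Arl13b was the gene that fell in RED versus CTL (-0.83, standard error 0.24, adjusted p 0.0262). The call did not hold when libraries were scaled by their totals (adjusted p 0.227) or with a replicate block by title number (0.0523). Nor did it hold in experiment 1 alone (0.0861) or experiment 2 alone (0.17), or without CTL 4 (0.0609), RED 3 (0.0545) or RED 5 (0.0774). The replicate block by library code, which compares CTL only within experiment 1, gave 0.187. Its fitted value stayed negative in every setting, from -1.03 (without RED 2) to -0.52 (library totals). Fitting experiment 2 alone, 0 of the 40 genes passed (6.73% of all genes higher, 0.446% lower), with 6 at an unadjusted p below 0.05. When the 4 samples prepared with both kits entered with their experiment 1 libraries, 0 rose (11.7% of all genes) and 3 fell, Arl13b, Bbs9 and Ift140 (1.36% of all genes). All 18 endothelial markers, 17 of 18 macrophage markers, 16 of 18 stellate cell and fibroblast markers and all 20 mitosis genes rose in the same comparison. Exons of Kif7 overlap Ticrr on the opposite strand, and no source used here states the strand setting of the counting. The part of these cells, of mitosis and of the overlap in the 4 changes was not tested.

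GREEN versus CTL joined both differences. Of the 40 genes, 27 rose and 2 fell, against 29.5% of all genes higher and 18.6% lower, with a median log2 fold change of 0.91 (0.11 for all genes). For 16 of 40 all GREEN samples lay above all CTL samples, as for 21% of all genes. This comparison shares its GREEN samples with GREEN versus RED and its CTL samples with RED versus CTL, so the counts are not separate evidence. The levels of Dync2li1 differed most, from a mean of 0.223 ± 0.0991 CPM in CTL to 14.3 ± 13.5 CPM in GREEN (SD, n = 5, log2 fold change 5.57). The changes of Ift57 (4.66), Kif7 (3.67), Pkhd1 (3.59), Ift122 (2.15), Bbs2 (1.81), Bbs12 (1.79) and Pkd2 (1.76) followed, beside Nphp4 with its 3 CTL counts.

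The 2 genes that fell were Ift20 and Ift52. Ift20 (ENSMUSG00000001105.15, chromosome 11, 78536361 to 78541737), the subunit that also resides at the Golgi, was at 20.7, 18.6, 27.0, 42.4 and 30.3 CPM in CTL 1 to 5 and at 15.7, 16.6, 16.9, 21.8 and 19.7 CPM in GREEN 1 to 5. CTL 4 stood highest and the groups overlapped (-0.59, standard error 0.15, adjusted p 0.00507). Ift52 (ENSMUSG00000017858.12, chromosome 2, 163017354 to 163046141), a core subunit, was at 18.8, 20.9, 27.5, 23.8 and 17.6 CPM in CTL 1 to 5 and at 15.1, 16.4, 13.0, 21.9 and 18.9 CPM in GREEN 1 to 5 (-0.35, adjusted p 0.0158). With libraries scaled by their totals, which put the median of all genes at 0.83, both values became positive, 0.15 for Ift20 and 0.36 for Ift52, below that median.

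Among the 40 genes, those with little RNA in healthy hepatocytes tended to change most. Whether this also holds over all genes was not examined. Per kilobase of exon, mean CTL levels ran from 0.00314 CPM (Nphp4) to 18.2 CPM (Ift20), with a median of 0.841 CPM. Among the 20 genes below that median 13 rose in GREEN versus RED with a median log2 fold change of 1.24, and among the 20 above it 9 rose with a median of 0.486. Spearman's rho between the CTL level and this change was -0.62 across the 40 genes, which are not independent and come from the same libraries. Pkhd1 and Pkd2 departed from this order. At CTL levels of 1.32 and 3.14 CPM per kilobase they still rose by 3.48 and 1.36. Ift20, Ift52, Ift46 and Kif3b, the 4 genes of highest CTL level per kilobase, did not pass the test.

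**Figure D5:**
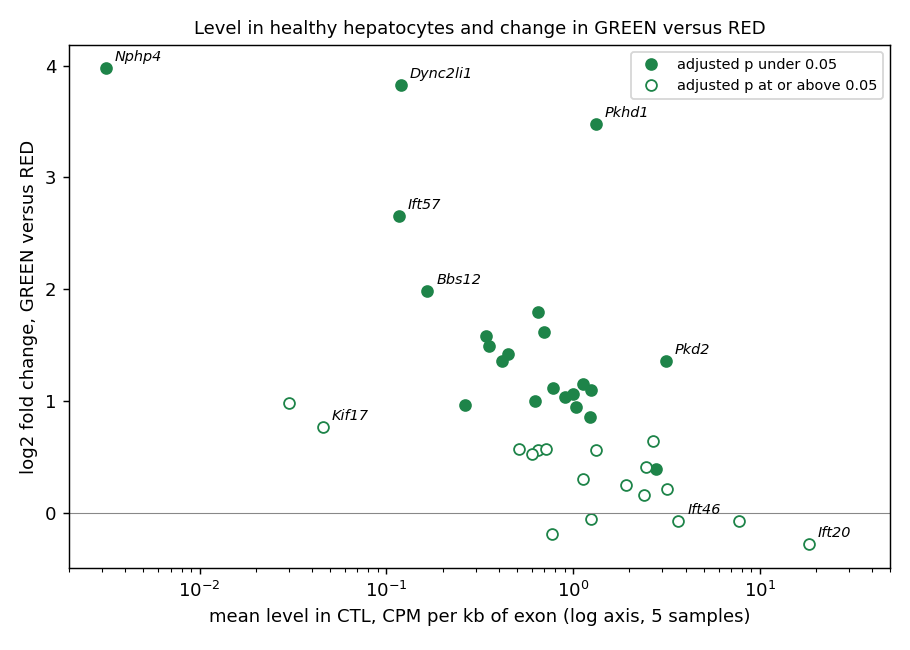
Mean level in CTL (x axis, CPM per kilobase of exon, log scale, 5 samples) against fitted log2 fold change in GREEN versus RED (y axis) for 40 genes; filled points have an adjusted p under 0.05. Of the filled points, 13 lie below the median CTL level and 9 above it, and Pkhd1 and Pkd2 stand above the other genes of similar level.

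A second list held 80 other genes of the primary cilium or of cystic disease and its partners. Of these, 37 rose and 1 fell in GREEN versus RED (9.68% and 3.22% of all genes), with a median log2 fold change of 0.66. The gene that fell, Sec63, was listed for cystic disease and not for a part of the cilium. In RED versus CTL 6 of the 80 rose and 2 fell, against 14.2% of all genes higher and 1.99% lower. Among those with the smallest adjusted p were transcription and RNA regulators of cystic disease, which are not structural genes of the cilium. Glis3 rose from 1.37 ± 0.282 CPM in RED to 64.9 ± 43.2 in GREEN (5.40, adjusted p 9.36e-05) and Bicc1 from 11.1 ± 4.30 to 193 ± 131 CPM (4.01). Glis2 rose from 2.31 ± 1.52 to 37.5 ± 25.3 CPM (3.91; SD, n = 5 throughout).

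Structural genes of the second list followed. Ttc26 and Wdr35 of intraflagellar transport rose by 2.16 and 1.33, and the transport kinesin gene Kif3c by 1.44. Of the transition zone, Tmem231 rose by 3.02 and the inversin-compartment kinase gene Nek8 by 1.35. The adenylyl cyclase gene Adcy6 rose by 0.99, Dzip1l by 3.32 and the Hedgehog receptor component gene Smo by 1.12. Of the RFX factors, Rfx2 (1.57, adjusted p 0.0387) and Rfx1 (0.63, adjusted p 0.0217) rose. Rfx3, Rfx5 and Rfx7 did not pass, with values of 0.62, 0.24 and 0.23. None of the 3 further BBSome genes (Bbip1, Mkks and Lztfl1) passed the test.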

How the data were processed

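The authors' deposited tables, 1 per experiment, held estimated counts per gene for 19 libraries of 15 samples by title, with no normalization. They were made with kallisto 0.43.1 on GRCm38, per the submitters' processing notes. The transcript annotation, the summing to genes and the strand setting are not stated there. Per the labels' protocols, libraries were made from 150 ng of total RNA with TruSeq Stranded mRNA (experiment 1) or KAPA RiboErase (experiment 2).

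Gene names came from GENCODE M21 and matched 34924 of 35274 identifiers (99.0%). Estimated counts were rounded. Each sample entered with 1 library, that of experiment 2 where it had both. These libraries totalled 26163553 to 34216824 estimated counts in experiment 1, and 38061859 to 44177627 in experiment 2. GREEN 3, GREEN 4 and GREEN 5 had the largest TMM factors (1.35, 1.49 and 1.43). Genes passing filterByExpr (16387) were fitted with group and experiment as terms in R 4.3.3 with edgeR 4.0.16 (quasi-likelihood F test, Benjamini-Hochberg adjustment over all genes, threshold 0.05). All adjusted p-values of the report are from this test unless another is named. The procedure was tested on simulated counts. DESeq2 1.42.0, limma-voom (limma 3.58.1), library totals, no filter, single experiments, replicate blocks and leaving out samples were alternatives, and 5 further ones were added after the data were seen.

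The cilium genes and the marker lists were chosen with earlier results of these data known. Some genes of these lists entered the counts and sums but are not reported here by name. Genes are named by a rule: those past the threshold in order of adjusted p, with values per sample for the 10 of lowest adjusted p in GREEN versus RED and for those that passed another comparison (at most 5 more), and Pkhd1, Pkd1, Pkd2, Arl13b, Ift88 and Kif3a in any case. Promoters were read from RefSeq windows of GRCm38.p6. In 35 of 38 windows the bases after the start lay in the gene's own transcripts.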

Additional observations from a re-analysis of the deposited data

Results flagged for a closer look

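In each group of 5 samples, a highest or lowest value was singled out when its gap to the next sample, divided by the group's range, exceeded Dixon's 95% critical value of 0.71. This held in 6 of 120 groups (40 genes in 3 groups), and chance gives about 1 in 20. None was in GREEN, and all 6 were highest values. In CTL 4, Ift46, a subunit of intraflagellar transport complex B, stood at 32.5 CPM with the next CTL sample at 22.3 CPM, and the BBSome gene Bbs5 at 3.93 with the next at 2.60 CPM. In CTL 3, Ift22 stood at 4.25 with the next at 2.74 CPM. In CTL 2, Kif17 stood at 0.549 with the next at 0.156 CPM. In RED 5, Ift81 stood at 4.08 with the next at 2.80 CPM, and Kif3a at 7.94 with the next at 5.73 CPM. RED 5 also had the highest endothelial and macrophage marker sums of the 15 samples (2892 and 2018 CPM).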

How the results depend on the processing

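Shares in parentheses are those of all genes tested. GREEN versus RED called 22 of 40 genes higher in the fit reported (9.68%). Leaving out 1 sample at a time gave 12 to 26 (4.69% to 13.2%), with 12 without RED 1 (5.02%), 13 without GREEN 4 (5.08%) and 14 without GREEN 3 (4.69%). By edgeR, experiment 2 alone gave 0 (0.452%), and 0 again with CTL also left out (0%), with 16 and 14 cilium genes at an unadjusted p below 0.05. Alternatives chosen after seeing the data gave 2 without GREEN 4 and GREEN 5 (1.59%), 14 with CTL left out and a replicate block by library code (7.74%), and 3 (Dync2li1, Nphp4 and Pkd2) with that block in experiment 2 without CTL (5.15%). DESeq2 gave 26 (13.8%), library totals 32 (26.2%), experiment 1 alone 31 (19.4%) and limma-voom 22 (9.79%). No setting called a fall of a cilium gene in this comparison. In either direction, RED versus CTL called 4 (14.2% of all genes higher, 1.99% lower). It called 2 with limma-voom (13.7%), 0 in experiment 2 alone (7.18%), and 2 to 5 with 1 sample left out (12.7% to 19.5%; 2 without CTL 4, RED 3 or RED 5). GREEN versus CTL called 29 (29.5% of all genes higher, 18.6% lower). That comparison called 11 in experiment 2 alone (20.7%) and 16 without GREEN 4 and GREEN 5 (26.5%).

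Samples of RED and GREEN with the same number in the library code correlated in their deviations from group means at 0.577, 0.398 and 0.78 in experiment 2. RED 5 and GREEN 5, which share code and title numbers, gave -0.223, and RED 4 and GREEN 4, which also share both, gave 0.435. Title numbers gave -0.223 to 0.578. These values do not settle whether either number pairs samples, and the fit reported used no pairing. With the replicate block by title number RED versus CTL called 2 (14.6%) and GREEN versus RED 18 (8.45% higher). The replicate block by library code held all experiment 1 libraries together and the experiment 2 CTL libraries apart, so CTL met other groups only within experiment 1. With it they called 1 (15.7%) and 21 (11.1% higher), and Bbs10 in GREEN versus RED moved from -0.06 to 0.011.

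Fitted values of genes that had not passed the test, and of Ift20 and Ift52 in GREEN versus CTL, changed sign as follows. With library totals, which move the all-gene median to 0.42 in GREEN versus RED and 0.83 in GREEN versus CTL, GREEN versus RED gave 0.16 for Ift20, 0.38 for Ift46, 0.37 for Ift52, 0.25 for Bbs7 and 0.35 for Bbs10, and GREEN versus CTL gave 0.15 for Ift20 and 0.36 for Ift52. Bbs10 was 0.036 with limma-voom, 0.0028 in experiment 2 alone, 0.018 there without CTL, 0.11 there with the replicate block, and 0.019 without GREEN 4 and GREEN 5. Its range with 1 sample left out was -0.31 to 0.10, and that of Ift27 was -0.035 to 0.23. Without GREEN 4 and GREEN 5, Ift27 was at -0.086 and Kif17 at -0.019. Fewer samples enter the single-experiment and leave-out fits, and for the other changes the cause was not tested. Counts for Nphp4, Kif17, Kif7 and Bbs12 were low, which limits their precision.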

Other observations

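Genes of motile cilia, which beat and are not part of the primary cilium, were also measured. Of 25 such genes 13 passed the filter on low counts, and 6 rose and 0 fell in GREEN versus RED (edgeR, adjusted p below 0.05, median log2 fold change 2.26), against 9.68% of all genes higher and 3.22% lower. A gene can pass this filter through its counts in 1 group, as for Ccdc39 with 7, 20 and 457 counts in CTL, RED and GREEN. The 13 genes therefore favour those high in GREEN, and no excess over all genes is read from the count. Foxj1, the regulator of motile ciliogenesis, rose from 0.237 ± 0.198 CPM in RED to 13.9 ± 10.8 CPM in GREEN (SD, n = 5, log2 fold change 5.63, standard error 0.73, adjusted p 0.000416). It stood at 2.34 CPM in GREEN 1, 4.02 in GREEN 2 and 16.1 to 28.2 CPM in GREEN 3 to 5, above every RED sample, and its 5 CTL samples held 1 count in all. Ccdc39 (3.71), Dnah5 (3.17), Rsph9 (3.06), Spag6l (2.61) and Cfap54 (1.82) rose as well, all with means below 4 CPM in GREEN. Gmnc and Mcidas, which act above Foxj1 in multiciliated cells, did not pass the filter. Gmnc had 0 counts in all GREEN samples and Mcidas averaged 0.156 ± 0.129 CPM (SD, n = 5) there. The mesothelial markers Msln and Upk3b averaged 2.50 and 3.77 CPM in GREEN, and the part of other cell types in the motile cilium genes was not tested.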
